A study of Mus musculus with 157 samples.

Results

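The 100 promoters described here are those at which total RNA polymerase II (Pol II) was higher at 4, 6 and 24 h of retinoic acid (RA) than both before RA and at 72 h, and they were chosen from 13144 ranked genes. Reads were counted in a window reaching 1 kb up and downstream from each transcription start site (TSS). A gene was represented by its transcript with the highest mean level, and genes with a mean of at least 10 CPM (reads in the window as parts of 1e6 reads in all windows of the library) were ranked. The score was the smaller of 2 differences in log2(CPM + 1), the mean of the 4, 6 and 24 h means minus replicate 1 of 0 h, and the same mean minus replicate 1 of 72 h. The 100 highest scores made the set, and 61 of them would remain in it with all libraries of 0 and 72 h in the score in place of replicate 1 alone. Total Pol II in the libraries of the score chose the members and is given below as a description. Of the 100 genes, 86 code for proteins, 12 make long noncoding RNAs and 2 are microRNA genes, and they lie on 19 chromosomes.

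The cells were mouse E14 embryonic stem (ES) cells, an established line labelled wildtype, kept on gelatin-coated plates in medium with serum and the cytokine LIF, which sustains self-renewal. All groups share this line, and differ in the time with 1 µM RA, which was 2, 4, 6, 24, 48 or 72 h, against untreated cells at 0 h. Crosslinked chromatin immunoprecipitation and sequencing (ChIP-seq) used antibodies against the N-terminal domain (NTD), which sees all Pol II, against the form with phosphate on serine 5 (Ser5p) and against that with phosphate on serine 2 (Ser2p). NTD had 2 libraries at 0, 2, 24 and 72 h and 3 at 4, 6 and 48 h, and Ser5p and Ser2p had 3 libraries at 2 h and otherwise the same numbers. Nothing in the labels says that replicates were separate cultures, so the p-values measure the spread between these libraries, which may be technical. Whether LIF stayed in the medium during RA is not given in the sources used here.

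Pol II is recruited to a promoter, is phosphorylated on serine 5 of its C-terminal repeat around initiation, and gains serine 2 phosphorylation as it elongates along the gene. RA binds nuclear receptors of the RAR family, which sit with RXR partners on direct repeats of a short DNA motif and switch from repression to activation when the ligand arrives. In ES cells RA drives exit from self-renewal, and enzymes that clear RA are among the receptors' own targets, a negative feedback on the signal.

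The sequences below are of Cyp26a1, Rarg, Halr1, Nodal and 3 other named members, Ppdpf, Dleu7 and Cox7a1. That of Cyp26a1 is 30 bases long and marked for 1 element only, so its motifs cannot be compared with those of the others. The first shown is the stretch of the Cyp26a1 promoter, within the annotated span of the gene, with a direct repeat spaced by 5 bases (DR5), the classical RAR element, in capitals. Its capitals cover bases -32 to -16 relative to the listed transcript start.
Cyp26a1 (chr19:37697770-37697799, plus strand): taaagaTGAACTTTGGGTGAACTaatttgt
The other 6 are the 250 bases directly before the start of the annotated gene, each read 5′ to 3′ on the strand of the gene. That start need not be the one around which Pol II was counted. Capitals mark matches on either strand, overlapping ones included, to the nuclear receptor core motif AGGTCA, the GC box GGGCGG, the CCAAT box CCAAT or the TATA box TATAAA. All sequences are from RefSeq on build GRCm38.p6 (mm10).
Rarg (chr15:102257523-102257772, minus strand): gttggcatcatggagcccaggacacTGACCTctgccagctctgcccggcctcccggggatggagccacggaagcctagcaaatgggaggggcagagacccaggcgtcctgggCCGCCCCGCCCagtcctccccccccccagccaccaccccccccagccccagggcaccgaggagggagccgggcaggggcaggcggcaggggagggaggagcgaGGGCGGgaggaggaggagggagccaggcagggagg
Halr1 (chr6:52102699-52102948, plus strand): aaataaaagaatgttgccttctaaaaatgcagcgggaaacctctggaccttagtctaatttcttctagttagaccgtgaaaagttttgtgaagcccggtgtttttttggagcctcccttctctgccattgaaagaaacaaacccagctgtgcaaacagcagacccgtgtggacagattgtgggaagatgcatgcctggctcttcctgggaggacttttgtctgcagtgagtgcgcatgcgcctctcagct
Nodal (chr10:61417722-61417971, plus strand): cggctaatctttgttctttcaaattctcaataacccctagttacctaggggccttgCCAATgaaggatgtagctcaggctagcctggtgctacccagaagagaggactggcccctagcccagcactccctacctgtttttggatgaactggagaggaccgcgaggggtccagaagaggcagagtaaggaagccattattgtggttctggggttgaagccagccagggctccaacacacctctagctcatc
Ppdpf (chr2:181186572-181186821, plus strand): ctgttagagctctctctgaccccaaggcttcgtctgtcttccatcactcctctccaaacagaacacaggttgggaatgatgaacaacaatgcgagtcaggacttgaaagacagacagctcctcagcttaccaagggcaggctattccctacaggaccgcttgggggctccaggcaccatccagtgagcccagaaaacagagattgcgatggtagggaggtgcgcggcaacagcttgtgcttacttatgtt
Dleu7 (chr14:62292980-62293229, minus strand): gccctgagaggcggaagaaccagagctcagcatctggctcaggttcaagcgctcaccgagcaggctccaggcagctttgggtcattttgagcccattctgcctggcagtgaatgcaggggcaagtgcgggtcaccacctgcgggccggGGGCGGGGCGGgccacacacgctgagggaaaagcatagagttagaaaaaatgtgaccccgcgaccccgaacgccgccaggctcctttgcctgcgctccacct
Cox7a1 (chr7:30183921-30184170, plus strand): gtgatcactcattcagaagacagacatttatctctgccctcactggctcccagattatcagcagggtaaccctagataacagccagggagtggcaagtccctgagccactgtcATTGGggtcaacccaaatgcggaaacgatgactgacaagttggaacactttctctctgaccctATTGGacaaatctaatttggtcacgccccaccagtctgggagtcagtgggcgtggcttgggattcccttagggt
Rarg holds 1 receptor motif and 3 GC boxes, 2 of which overlap, Dleu7 holds 2 overlapping GC boxes, Cox7a1 holds 2 CCAAT boxes and Nodal holds 1. Ppdpf and Halr1 hold none of the 4 motifs in these 250 bases. The windows around listed transcript starts, described next, do hold a GC box for both genes and a CCAAT box for Ppdpf. For Cyp26a1 such windows hold a GC box and a TATA box besides the DR5.

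RefSeq windows of 300 bases, from 250 bases before to 50 after a start, were found for 80 of the 100 members (110 windows). The DR5 element was in 1 member window, that of Cyp26a1, which is 0.909% of the member windows, against 0.0395% of the windows of ranked genes and 0.0974% of all windows. A direct repeat spaced by 2 bases (DR2), the other common RAR element, was in no member window, against 0.0553% of the windows of ranked genes. The receptor motif was in 9.09% of the member windows, against 12.1% of those of ranked genes, the GC box in 62.7% against 64.4%, the CCAAT box in 30% against 38.2%, the TATA box in 6.36% against 6.96%, and the E-box CACGTG in 9.09% against 10.3%. The median ratio of observed to expected CpG dinucleotides was 0.644 in member windows, against 0.766 in those of ranked genes and 0.384 in all windows, and the ratio was at least 0.6 in 54.5% of the member windows, against 71.9% of those of ranked genes. These shares are descriptions of letters in the windows and were not tested.

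NTD totalled 1088159 to 3210580 reads per library around TSSs and 11684907 to 25696364 over gene bodies, Ser5p 1504737 to 3347830 around TSSs and Ser2p 18045745 to 28745658 over gene bodies. The 5 ES cell markers (Pou5f1, Sox2, Nanog, Zfp42 and Esrrb) summed to 226.9 to 386.5 CPM of NTD in the 4, 6 and 24 h libraries, against 350.4 and 461.7 CPM at 0 h and 168.2 and 221.5 CPM at 72 h. The 7 primitive endoderm markers summed to 47.1 to 64.6 CPM at those times, against 62.0 and 58.2 CPM at 0 h and 189.2 and 95.3 CPM at 72 h. The lists of trophoblast (5 genes), fibroblast (4) and neural (3) markers spanned 50.01 to 91.1, 16.95 to 39.5 and 45.6 to 85.5 CPM over all NTD libraries. No marker is a member and none was at 0, and the part of the changing cell mixture in the members' values was not tested. In these bulk samples, fewer cells of a type and less Pol II per cell cannot be told apart. The NTD libraries of 0 h and of 72 h differed from each other more than those of other times, with an SD of the log2 difference over the ranked genes of 0.453 at 0 h and 0.457 at 72 h, against 0.316 to 0.389 for the other pairs of NTD libraries of one time.

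Among the members, NTD at the promoter was already high at 2 h, was high to 24 h and stood near its starting level at 72 h. The median member had 22.04 to 23.1 CPM in the 0 h libraries, 34.7 to 37.4 at 2 h, 37.9 to 40.5 at 4 h, 36.7 to 42.2 at 6 h, 34.3 to 36.3 at 24 h, 24.8 to 28.5 at 48 h and 20.1 to 21.8 at 72 h. The highest mean stood at 2 h in 22 members, at 4 h in 25, at 6 h in 29, at 24 h in 18, at 48 h in 5 and at 0 h in 1. Among all ranked genes the mean was highest at 48 or 72 h in 20.1% and 20.7%, the commonest times. It was highest at 2, 4, 6 and 24 h in 14.7%, 9.03%, 11.1% and 10.6% of them. Scores ran from 0.522 to 1.82 with a median of 0.657, and 7 genes scored at least 1, which is at least 2-fold in CPM + 1 over both ends of the series. The promoters were of ordinary occupancy, with a median of the mean NTD level of 32.2 CPM, against 32.7 CPM for ranked genes.

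**Figure D1:**
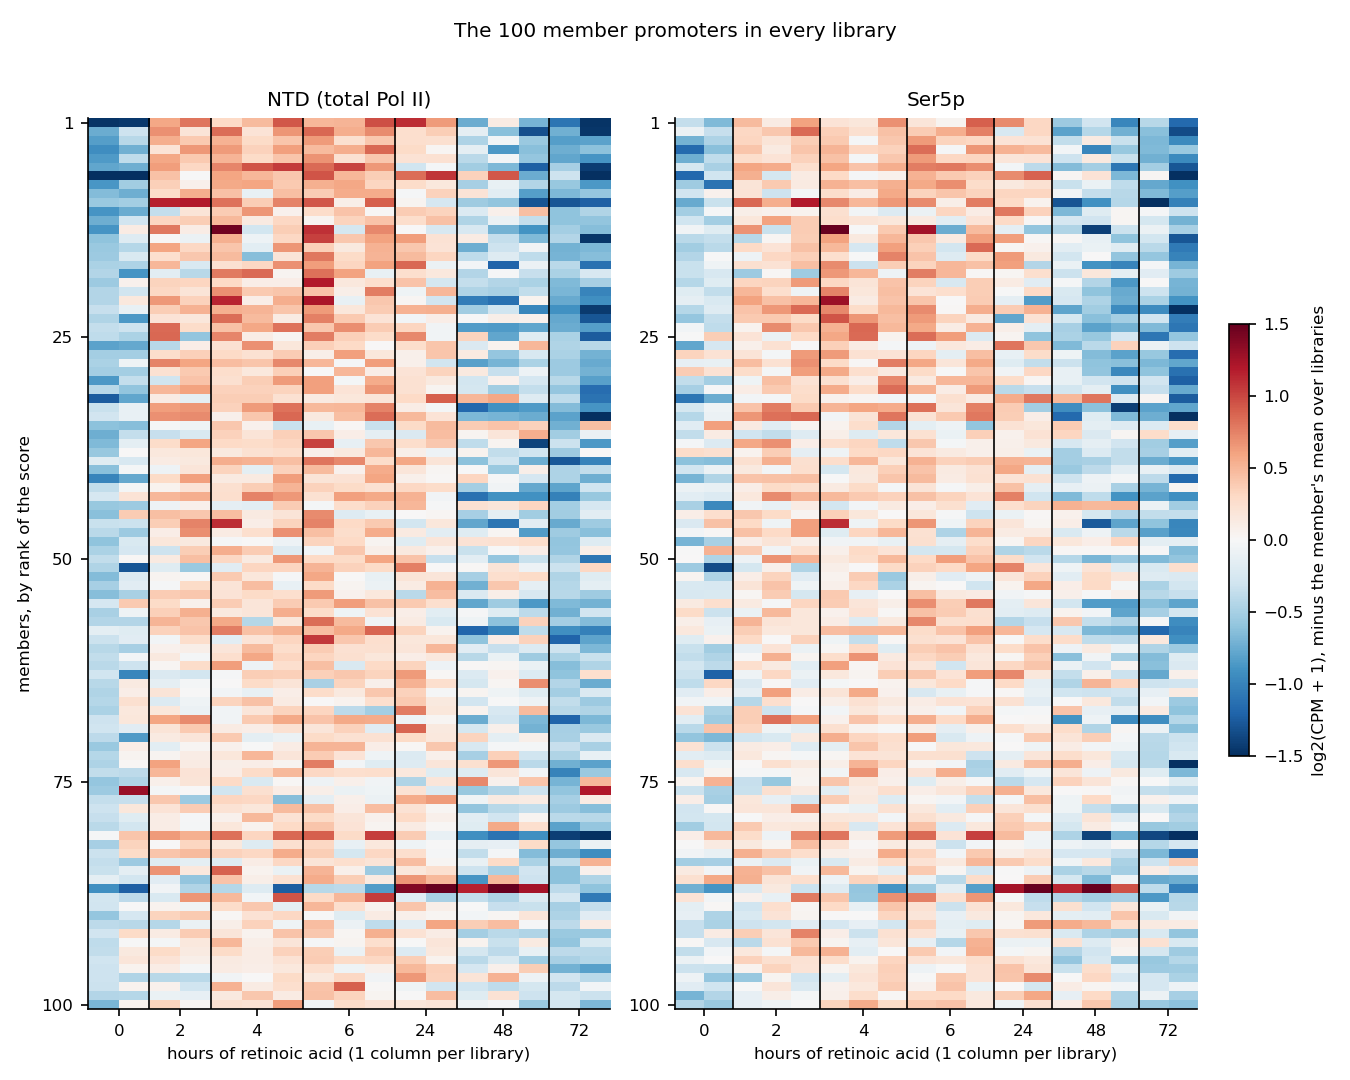
Each row is one of the 100 members in order of score and each column a library of NTD (left) or Ser5p (right) at promoters, by hours of RA; colour is log2(CPM + 1) minus the member's own mean over the libraries of that antibody, from -1.5 to 1.5. In most members the 2 to 24 h columns are high in both antibodies and the 0, 48 and 72 h columns low. In 31 members every Ser5p library of 4, 6 and 24 h lay above every one of 0 and 72 h, where 1.02% of all transcripts did.

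At the limit of the set the scores were close together. Bloc1s3 (0.529), Gtf2i (0.523) and Folr2 (0.522) were the last inside, and Abcb8 (0.521), Papola (0.518) and Ei24 (0.516) the first outside. Folr2, the beta folate receptor and last member, rose in Ser5p by 0.91 ± 0.21 against 0 h (edgeR adjusted p = 0.0211) and was higher by 0.88 ± 0.21 against 72 h (adjusted p = 0.00519), while the changes at Bloc1s3, a subunit of the lysosome biogenesis complex BLOC-1, were 0.43 ± 0.19 (adjusted p = 0.226) and 0.21 ± 0.19 (adjusted p = 0.601). Replicate 4 of 0 h and replicate 3 of 72 h of NTD were not used by the score. All 8 libraries of 4, 6 and 24 h lay above 0 h replicate 4 in 63 members, against 16.6% of the ranked genes, and above 72 h replicate 3 in 80 members, against 27.2% of the ranked genes. They lay above both in 54 members, against 5.39% of the ranked genes. The 8 libraries chose the members as high, so nothing is read from these counts. The zinc finger gene Zfp493, named here after its values were seen, shows how far these 2 libraries can differ from their partners, with 28.6 to 42.0 CPM of NTD at 4, 6 and 24 h, against 23.9 and 89.0 CPM at 0 h and 23.2 and 83.2 CPM at 72 h. Ser5p at Zfp493 had no such difference, with 24.1 and 21.5 CPM at 0 h and 23.6 and 22.9 CPM at 72 h.

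Ser5p was not used to choose the members, and it rose at many of them. Against 0 h, 28 of the 100 members rose at 4, 6 and 24 h and 0 fell, where 0.513% of all 32774 transcripts tested rose and 1.03% fell (edgeR quasi-likelihood test, adjusted p under 0.05). Against 72 h, 51 members were higher and 0 lower, where 2.94% of all transcripts were higher and 3.73% lower. The median log2 change of the members was 0.57 against 0 h and 0.68 against 72 h, where the median of all transcripts was -0.03 in both, and that of the ranked genes against 0 h was 0.15. The 2 comparisons share the libraries of 4, 6 and 24 h, and 19 members passed in both, where 0.137% of all transcripts (45) did. These 19 were Cdx1, Smyd4, Cd37, Rpa1, Acp5, Cyp26a1, Ppdpf, Pmepa1, Halr1, 3300002P13Rik, Aebp2, Steap3, Tctn1, Dhrs3, Foxp1, Dock6, Dhx32, Lefty1 and Folr2. In 31 members every Ser5p library of 4, 6 and 24 h lay above every library of 0 and 72 h, where 1.02% of all transcripts did.

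These calls rest on few libraries at the ends of the series. Leaving out a library of 0, 24 or 72 h leaves 1 library at that time, for members and all transcripts alike. The members' median log2 change against 0 h was 0.574 without 0 h replicate 4 and 0.565 without 0 h replicate 1. Against 72 h it was 0.743 without 72 h replicate 3 and 0.662 without 72 h replicate 1. Fewer members passed against 0 h when either library of 0 h, or 24 h replicate 3, was left out. Fewer passed against 72 h when either library of 72 h was left out. The number passing in both fell in each of these fits. Fewer of all transcripts were higher in these comparisons too. NTD and Ser5p libraries of the same time and number deviated from their group means together, with a correlation over the 13144 genes of 0.125 to 0.462 in 17 pairs. With replicate 1 of both 0 and 72 h left out, no partner of a library the score used at those times remained. Fewer members passed in that fit than with all libraries. Their median log2 changes were 0.56 against 0 h and 0.66 against 72 h, where those of all transcripts were -0.013 and 0.004.

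**Figure D2:**
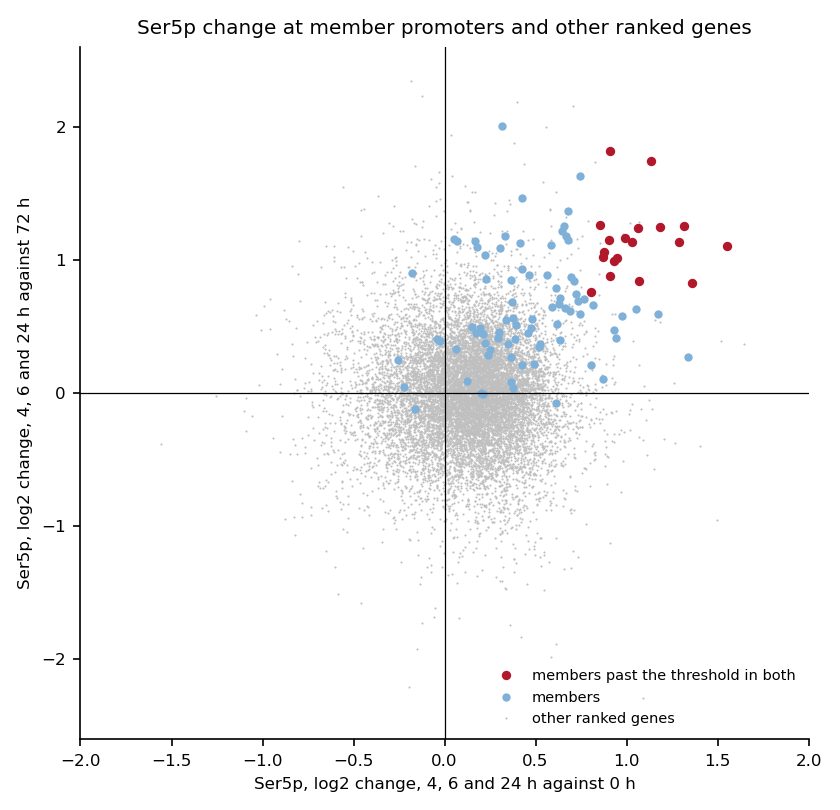
Log2 change of promoter Ser5p at 4, 6 and 24 h, against 0 h (horizontal axis) and against 72 h (vertical axis). The 100 members are light blue, with the 19 past the threshold in both comparisons in red. Grey points are the other genes of the 13144 ranked. The members sit to the upper right of the cloud of ranked genes, with medians of 0.57 and 0.68.

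By single times, Ser5p rose against 0 h at 5 members at 2 h (0.0305% of all transcripts), at 3 at 4 h (0.0122%), at 8 at 6 h (0.0488%) and at 32 at 24 h (3.59%). The 5 at 2 h were Cd37, Ppdpf, Pmepa1, Foxp1 and Dock6. At 48 h, 7 members were above 0 h and 4 below (6.84% and 5.37% of all transcripts). At 72 h only the linker histone gene Hist1h1e was above 0 h (5.09% of all transcripts), and Aebp2, Mir1199, 2210011C24Rik, Kat2b, Tnfsf13, Mymx and 4833428L15Rik were below it (3.87%). Mir1199 lies within 2210011C24Rik, and their TSS windows hold nearly the same reads, so that the pair counts as 1 region here and among the 4 below 0 h at 48 h. At 24 h against 4 and 6 h, Dhrs3 and Lefty1 were higher (0.619%) and Acp5 was lower (0.143%). The number higher was 1 when replicate 3 of 24 h, replicate 1 or 4 of 4 h, or any one library of 6 h was left out, and the number lower was 0 when 24 h replicate 3, 4 h replicate 4, or replicate 1 or 3 of 6 h was left out.

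**Figure D3:**
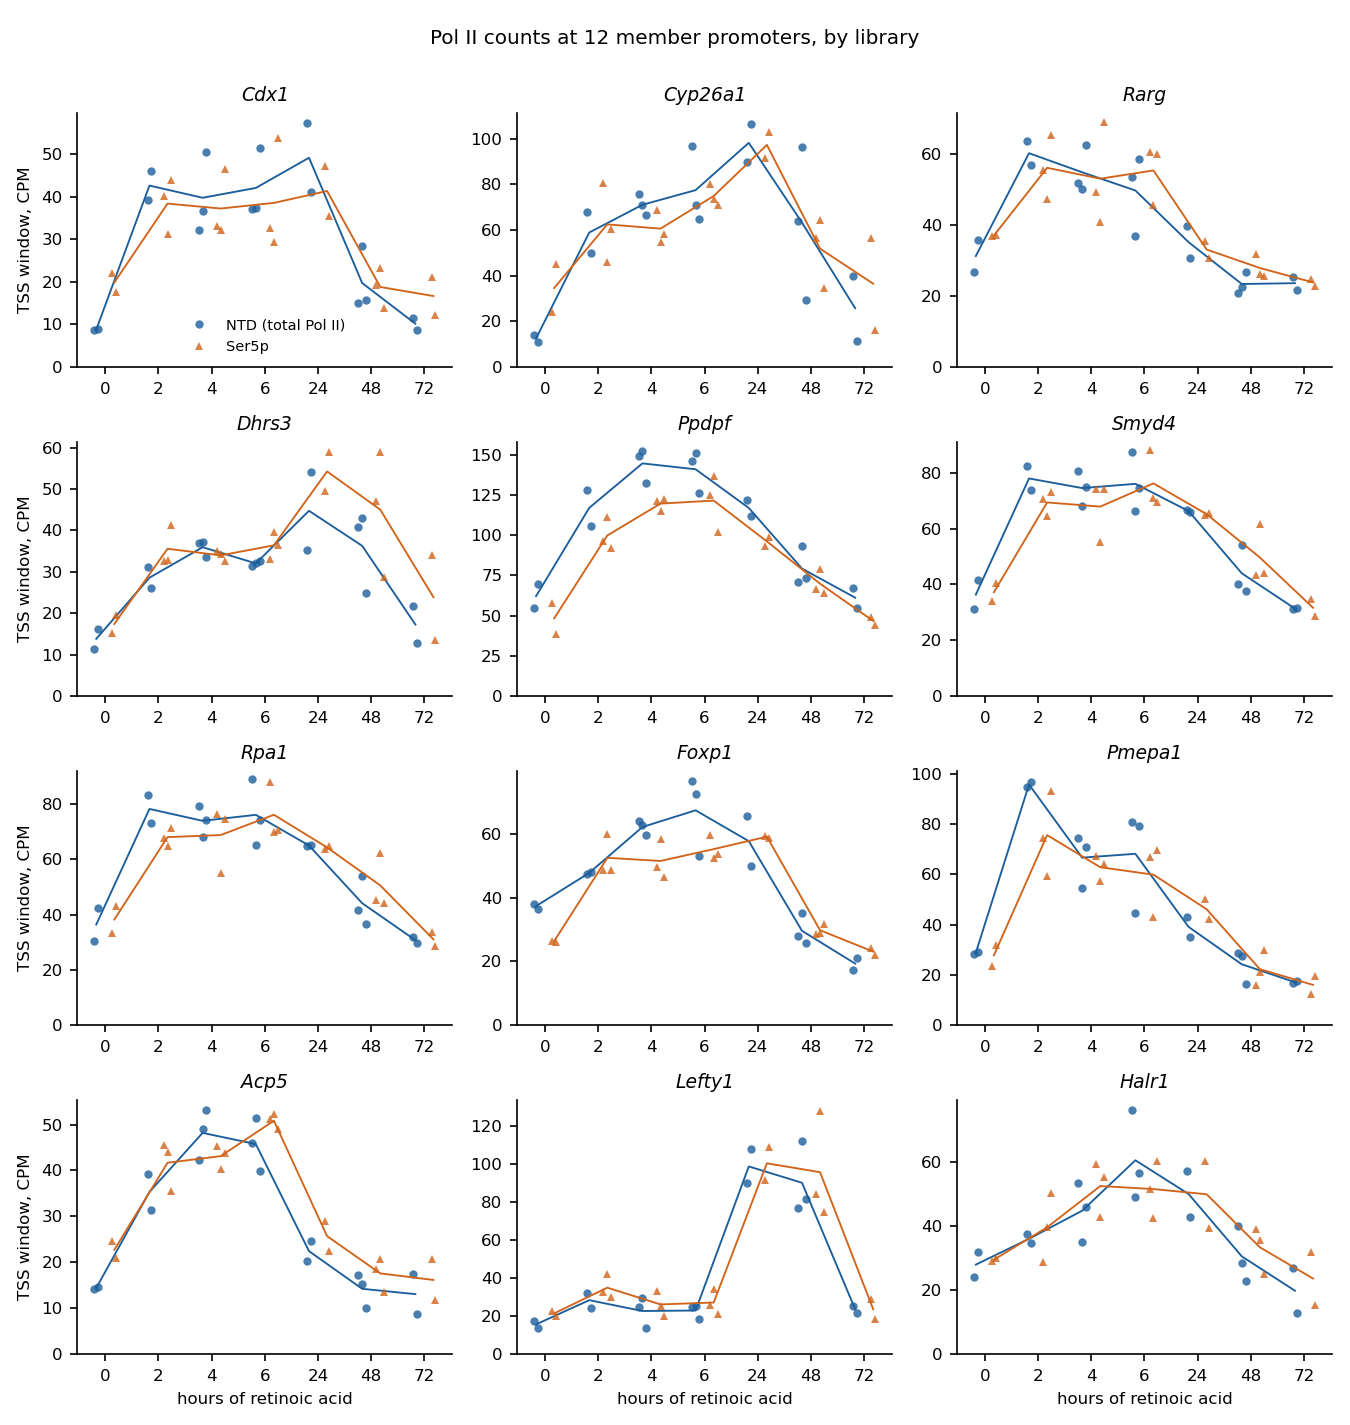
CPM at the promoters of 12 members in each library of NTD (circles) and Ser5p (triangles) by hours of RA, on a linear axis from 0, with lines joining the means of each time. Cdx1 is low at 0 h and high from 2 to 24 h, and NTD at Cyp26a1 is low at 0 h and high from 2 to 48 h. Pmepa1 is highest at 2 h, Acp5 is low again by 24 h, and Lefty1 is high only at 24 and 48 h.

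Of the 3 members from the retinoid list, 2 encode enzymes that lower the supply of RA, and both rose in Ser5p. Cyp26a1, the cytochrome P450 that oxidises RA, had 64.6, 73.4 and 106 CPM of NTD (lowest, median and highest of the 8 libraries of 4, 6 and 24 h), against 14.1 and 10.8 CPM at 0 h and 39.9 and 11.5 CPM at 72 h. Its Ser5p had 54.7, 72.2 and 103 CPM at those times, against 24.1 and 45.0 CPM at 0 h and 56.5 and 16.3 CPM at 72 h. The Ser5p groups overlapped through 72 h replicate 1. Ser5p rose by 1.29 ± 0.26 on the log2 scale (± is the SE for every log2 change) against 0 h (edgeR adjusted p = 0.0104) and was higher by 1.13 ± 0.25 against 72 h (adjusted p = 0.00275). This is the promoter with the DR5 element printed above. At 48 h against 2 h, NTD at Cyp26a1 did not pass, with a log2 change of 0.21 ± 0.27 (edgeR adjusted p = 0.737). Against 0 h its NTD log2 change was 3.06 at 24 h and 2.42 at 48 h. Dhrs3, a reductase that turns retinaldehyde back into retinol, had 31.4, 34.4 and 54.2 CPM of NTD, against 11.4 and 16.2 CPM at 0 h and 21.8 and 12.8 CPM at 72 h. In Ser5p it had 32.5, 35.8 and 58.8 CPM, against 15.2 and 19.6 CPM at 0 h and 34.2 and 13.5 CPM at 72 h, where replicate 1 again reached into the range. Its Ser5p rose by 1.36 ± 0.25 against 0 h (edgeR adjusted p = 0.00408), was higher by 0.83 ± 0.23 against 72 h (adjusted p = 0.0209), and was higher at 24 h than at 4 and 6 h by 0.76 ± 0.19 (adjusted p = 0.0461). NTD at Dhrs3 did not pass at 48 h against 2 h either, with a log2 change of 0.41 ± 0.25 (edgeR adjusted p = 0.365). Against 0 h its NTD log2 change was 1.74 at 24 h and 1.37 at 48 h.

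Rarg, the RA receptor gamma, was highest early. It had 30.6, 51.0 and 62.4 CPM of NTD at 4, 6 and 24 h, against 26.7 and 35.8 CPM at 0 h and 25.4 and 21.8 CPM at 72 h, and the 2 h libraries stood at 63.5 and 56.8 CPM. Its Ser5p had 30.8, 47.4 and 69.1 CPM, against 36.8 and 37.2 CPM at 0 h and 24.7 and 22.9 CPM at 72 h. Both 24 h libraries of Ser5p, 35.4 and 30.8 CPM, lay below 0 h, and all 8 libraries lay above 72 h. Ser5p was higher by 0.93 ± 0.20 against 72 h (edgeR adjusted p = 0.00173), and against 0 h the log2 change was 0.42 ± 0.19 (adjusted p = 0.211).

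The list of retinoid metabolism and receptor genes holds 22 genes, of which 16 were ranked and these 3 were members. Ser5p rose against 0 h at 6 of the 16 and fell at 0, where 0.822% of the ranked genes rose and 0.221% fell. The median log2 change of the 16 was 0.33, against 0.15 for the ranked genes and -0.03 for all transcripts. Besides Cyp26a1 and Dhrs3, the genes of the list that rose were Rarb (1.50), the receptor whose gene is a standard RAR target, Rara (0.92), the meiosis gene Stra8 (1.65) and the receptor corepressor Nrip1 (1.14). Against 72 h, 3 were higher, which are the 3 members, where 4.66% of the ranked genes were higher. Rarb (-0.95) and the RA-binding protein gene Crabp2 (-1.23) were lower, where 5.74% of the ranked genes were, and the median of the 16 was 0.07. Rarb and Crabp2 thus ranked near the end of the order of scores, at 13081 and 12930. The list was put together with earlier results of these data known.

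Among patterning and transcription genes, Cdx1 had the highest score of all. It encodes a caudal homeobox factor of the posterior body axis and is known as a direct RA target. Cdx1 had 32.3, 39.3 and 57.3 CPM of NTD at 4, 6 and 24 h, against 8.71 and 8.86 CPM at 0 h and 11.6 and 8.72 CPM at 72 h. Its Ser5p had 29.4, 34.3 and 53.7 CPM, against 22.1 and 17.6 CPM at 0 h and 21.2 and 12.1 CPM at 72 h. Neither antibody's groups overlapped. Ser5p rose by 1.06 ± 0.23 against 0 h (edgeR adjusted p = 0.015) and was higher by 1.24 ± 0.24 against 72 h (adjusted p = 0.000428). It was the only member of the list of caudal homeobox genes and Hox cofactors (8 ranked of 12), where Ser5p also rose against 0 h at Pbx2 (1.52).

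None of the 11 ranked genes of the list of 15 anterior Hox genes was a member, but the long noncoding RNA gene Halr1 beside the Hoxa cluster was. Halr1 had 34.9, 51.2 and 76.2 CPM of NTD, against 23.9 and 32.0 CPM at 0 h and 26.8 and 12.8 CPM at 72 h. Its Ser5p had 39.4, 53.4 and 60.4 CPM, against 28.98 and 30.01 CPM at 0 h and 31.8 and 15.4 CPM at 72 h. The groups did not overlap in either antibody. Ser5p rose by 0.91 ± 0.22 against 0 h (edgeR adjusted p = 0.0251) and was higher by 1.15 ± 0.23 against 72 h (adjusted p = 0.000572).

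Foxp1, a forkhead transcription factor, had one of the tightest patterns. It had 49.8, 63.4 and 76.8 CPM of NTD, against 38.1 and 36.6 CPM at 0 h and 17.4 and 21.2 CPM at 72 h. Its Ser5p had 46.4, 56.1 and 59.6 CPM, against 26.5 and 26.1 CPM at 0 h and 24.2 and 21.9 CPM at 72 h. With no overlap between groups, Ser5p rose by 1.18 ± 0.19 against 0 h (edgeR adjusted p = 0.00107) and was higher by 1.25 ± 0.19 against 72 h (adjusted p = 1.49e-05). Aebp2, a cofactor of Polycomb repressive complex 2, ended below its starting level, and its Ser5p at 72 h was among those lower than at 0 h. It had 86.9, 110.3 and 119.8 CPM of NTD, against 60.4 and 71.2 CPM at 0 h and 40.6 and 27.7 CPM at 72 h. Ser5p rose by 0.91 ± 0.21 against 0 h (edgeR adjusted p = 0.0212) and was higher by 1.82 ± 0.23 against 72 h (adjusted p = 5.22e-07). Hivep3, a zinc finger factor with the second score, had 22.9, 30.6 and 36.6 CPM of NTD, against 11.4 and 15.8 CPM at 0 h and 11.6 and 6.54 CPM at 72 h. Its Ser5p was higher by 1.37 ± 0.24 against 72 h (edgeR adjusted p = 0.000121), and the change against 0 h was 0.68 ± 0.21 (adjusted p = 0.0874).

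The signalling members described next include genes of the Nodal and transforming growth factor beta pathways and of the LIF pathway, and their times differed. Pmepa1, a membrane protein that restrains SMAD signalling, was highest at 2 h, with 94.7 and 96.9 CPM of NTD. It had 35.0, 62.7 and 80.8 CPM at 4, 6 and 24 h, against 28.3 and 29.3 CPM at 0 h and 16.7 and 17.4 CPM at 72 h. Ser5p rose at 2 h by 1.55 ± 0.25 against 0 h (edgeR adjusted p = 0.00284), and at 4, 6 and 24 h by 1.13 ± 0.23 (adjusted p = 0.0104), and was higher than at 72 h by 1.74 ± 0.25 (adjusted p = 4.1e-06).

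Lefty1, a secreted antagonist of Nodal, was late. Its NTD had 24.9, 29.5 and 13.7 CPM at 4 h and 25.01, 25.5 and 18.4 CPM at 6 h, then 89.9 and 108 CPM at 24 h and 76.7, 112 and 81.8 CPM at 48 h. At 0 h it had 17.4 and 13.9 CPM and at 72 h 25.4 and 21.8 CPM, so the 4 and 6 h libraries overlapped both ends and the 24 h libraries did not. Ser5p was higher at 24 h than at 4 and 6 h by 2.04 ± 0.20 (edgeR adjusted p = 1.42e-09), and the mean of the 3 times rose by 1.07 ± 0.25 against 0 h (adjusted p = 0.0246) and was higher by 0.84 ± 0.25 against 72 h (adjusted p = 0.0276). Nodal, the ligand, had 59.6, 69.1 and 88.1 CPM of NTD at 4, 6 and 24 h, against 50.1 and 64.7 CPM at 0 h and 37.7 and 35.2 CPM at 72 h. Its Ser5p was higher by 0.71 ± 0.20 against 72 h (edgeR adjusted p = 0.0205), and the change against 0 h was 0.64 ± 0.20 (adjusted p = 0.0808). In the list of 16 Nodal and activin pathway genes (15 ranked), Ser5p rose against 0 h at 2 (Lefty1 and the SMAD corepressor gene Skil) and fell at 0, with a median of 0.14. Of the ranked genes 0.822% rose, with a median of 0.15, so the list's median was near theirs.

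Pim1, a kinase whose gene responds to LIF through STAT3, had 82.5, 90.1 and 109 CPM of NTD, against 61.5 and 67.0 CPM at 0 h and 46.4 and 54.2 CPM at 72 h, with no overlap. Its Ser5p was higher by 0.74 ± 0.20 against 72 h (edgeR adjusted p = 0.0163), and the change against 0 h was 0.72 ± 0.20 (adjusted p = 0.0511). It was the only member of the list of 12 LIF-STAT3 pathway genes, where Ser5p passed against 0 h at 0 genes in either direction (median 0.22), and against 72 h at Pim1 (higher) and Junb (lower), with a median of 0.05. The ranked genes had a median of 0.15 against 0 h, and against 72 h 4.66% of them were higher and 5.74% lower. Bcl3, a nuclear partner of NF-kappaB, was high in 2 libraries only. It had 51.4 CPM of NTD in 4 h replicate 1 and 39.5 CPM in 6 h replicate 1, and the 8 libraries ran from 14.7 CPM with a median of 20.8 CPM, against 9.25 and 19.6 CPM at 0 h and 12.3 and 11.2 CPM at 72 h. The Ser5p changes of Bcl3 were 0.59 ± 0.34 against 0 h (edgeR adjusted p = 0.339) and 0.65 ± 0.35 against 72 h (adjusted p = 0.308).

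Lin28a, the RNA-binding protein that blocks maturation of let-7 microRNAs, was a member by NTD and not by Ser5p. It had 20.5, 33.3 and 57.2 CPM of NTD at 4, 6 and 24 h, against 23.9 and 27.3 CPM at 0 h and 19.6 and 31.8 CPM at 72 h, and all 3 groups overlapped. The Ser5p changes were 0.12 ± 0.19 against 0 h (edgeR adjusted p = 0.733) and 0.09 ± 0.19 against 72 h (adjusted p = 0.86). It was the only member of the list of 10 general pluripotency genes, in which Ser5p passed against 0 h at 0 genes (median -0.10) and was higher against 72 h at 8, with a median of 0.77. The ranked genes had medians of 0.15 against 0 h and -0.002 against 72 h, and 4.66% of them were higher against 72 h.

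Ppdpf, named for a role in pancreatic progenitors of zebrafish, had 112, 139 and 152 CPM of NTD, against 54.4 and 69.7 CPM at 0 h and 67.4 and 54.8 CPM at 72 h. Its Ser5p had 93.3, 118 and 137 CPM, against 58.0 and 38.5 CPM at 0 h and 48.9 and 44.4 CPM at 72 h. With the groups well apart, Ser5p rose by 1.32 ± 0.21 against 0 h (edgeR adjusted p = 0.00107) and was higher by 1.25 ± 0.21 against 72 h (adjusted p = 6.18e-05). The stretch printed for Ppdpf held none of the 4 motifs, while its windows around listed transcript starts held a GC box and a CCAAT box. Cd37, a tetraspanin best known from B cells, had 25.3, 35.7 and 45.9 CPM of NTD, against 12.5 and 14.6 CPM at 0 h and 14.5 and 15.9 CPM at 72 h. Ser5p at Cd37 rose by 1.55 ± 0.23 against 0 h, the largest such change among the members (edgeR adjusted p = 0.00092), and was higher by 1.11 ± 0.22 against 72 h (adjusted p = 0.00058).

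Smyd4 and Rpa1 share a promoter region. Their annotated starts lie 150 bp apart on opposite strands, with overlapping 5′ ends, so their TSS windows hold nearly the same reads and count as 1 region. Smyd4, a protein with SET and MYND domains, had 66.0, 71.3 and 87.2 CPM of NTD, against 31.0 and 41.6 CPM at 0 h and 31.2 and 31.5 CPM at 72 h. Ser5p at Smyd4 rose by 1.03 ± 0.20 against 0 h (edgeR adjusted p = 0.00772) and was higher by 1.14 ± 0.20 against 72 h (adjusted p = 0.000156). Gene bodies separate the pair, as given below for Rpa1, the large subunit of the single-stranded DNA binding protein RPA.

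Acp5, a phosphatase of bone-resorbing cells, was lower at 24 h than at 4 and 6 h. It had 42.4, 49.1 and 53.1 CPM of NTD at 4 h and 45.9, 51.4 and 39.9 CPM at 6 h, but 20.3 and 24.6 CPM at 24 h, against 14.1 and 14.6 CPM at 0 h and 17.4 and 8.72 CPM at 72 h. Ser5p was lower at 24 h than at 4 and 6 h by a log2 change of -0.77 ± 0.18 (edgeR adjusted p = 0.0361). Over the 3 times it rose by 0.85 ± 0.20 against 0 h (edgeR adjusted p = 0.0214) and was higher by 1.27 ± 0.21 against 72 h (adjusted p = 5.4e-05). Steap3, a ferrireductase of iron uptake, had 30.8, 39.3 and 57.2 CPM of NTD, against 22.9 and 16.9 CPM at 0 h and 18.1 and 12.5 CPM at 72 h. Its Ser5p rose by 0.93 ± 0.22 against 0 h (edgeR adjusted p = 0.0246) and was higher by 0.99 ± 0.22 against 72 h (adjusted p = 0.00276).

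Dock6, an exchange factor for the GTPases Rac1 and Cdc42, had 45.8, 50.8 and 70.4 CPM of NTD, against 22.3 and 26.2 CPM at 0 h and 32.6 and 26.8 CPM at 72 h. Ser5p rose by 0.95 ± 0.20 against 0 h (edgeR adjusted p = 0.011) and was higher by 1.02 ± 0.20 against 72 h (adjusted p = 0.000504). Its span holds 2 further members, Mir7083 and Angptl8, a secreted inhibitor of lipoprotein lipase whose start lies 17325 bp from that of Dock6. Reads over Mir7083 and Angptl8 cannot be told apart from those of Dock6 passing through. Angptl8 had 24.9, 36.3 and 45.6 CPM of NTD, against 20.1 and 23.5 CPM at 0 h and 16.0 and 13.4 CPM at 72 h, and its Ser5p was higher by 1.18 ± 0.23 against 72 h (edgeR adjusted p = 0.000593) with a change of 0.67 ± 0.22 against 0 h (adjusted p = 0.0943).

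For the last of the named genes, the Ser5p test passed against 72 h and not against 0 h. Dleu7, named for a region deleted in lymphocytic leukaemia, had 33.8, 48.7 and 54.4 CPM of NTD, against 22.9 and 21.6 CPM at 0 h and 22.5 and 24.0 CPM at 72 h, and its Ser5p changes were 0.58 ± 0.18 against 0 h (edgeR adjusted p = 0.0782) and 1.11 ± 0.19 against 72 h (adjusted p = 0.000103). Anxa11, a calcium-dependent phospholipid-binding annexin, had 37.8, 46.3 and 51.9 CPM of NTD, against 21.8 and 30.04 CPM at 0 h and 23.9 and 24.0 CPM at 72 h, with Ser5p changes of 0.66 ± 0.19 (edgeR adjusted p = 0.0555) and 0.64 ± 0.19 (adjusted p = 0.0285). Cox7a1, the heart and muscle isoform of a cytochrome c oxidase subunit, had 76.2, 106 and 119 CPM of NTD, against 64.2 and 90.1 CPM at 0 h and 34.1 and 49.5 CPM at 72 h, with Ser5p changes of 0.69 ± 0.23 (edgeR adjusted p = 0.106) and 0.88 ± 0.24 (adjusted p = 0.0159). The NTD libraries of Dleu7 and Anxa11 did not overlap between groups, and those of Cox7a1 overlapped with 0 h.

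A group of 3 linker histone genes, picked out after their values were seen, was high again in 1 library of 72 h. Hist1h1e had 247, 348 and 471 CPM of NTD at 4, 6 and 24 h, against 204 and 114 CPM at 0 h and 222 and 346 CPM at 72 h. Hist1h1d had 461, 596 and 725 CPM, against 380.4 and 236 CPM at 0 h and 307 and 555 CPM at 72 h. H1f0, the replacement linker histone, had 77.3, 100.1 and 121 CPM, against 68.0 and 59.7 CPM at 0 h and 67.4 and 126 CPM at 72 h. The score used replicate 1 of 72 h, the lower library at each of the 3. Ser5p rose against 0 h at all 3, by 1.34 ± 0.27 at Hist1h1e (edgeR adjusted p = 0.0104), 1.17 ± 0.29 at Hist1h1d (adjusted p = 0.0299) and 0.87 ± 0.22 at H1f0 (adjusted p = 0.0316). Against 72 h the changes were 0.27 ± 0.25 at Hist1h1e (edgeR adjusted p = 0.606), 0.59 ± 0.28 at Hist1h1d (adjusted p = 0.236) and 0.11 ± 0.20 at H1f0 (adjusted p = 0.838).

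The Ser5p calls lay at promoters with more reads. Of the 19 members with a mean under 20 CPM of NTD, 0 passed in both Ser5p comparisons, against 13 of the 55 from 20 to 50 CPM and 6 of the 26 at 50 CPM or more. The smaller of a member's 2 Ser5p log2 changes had a median of 0.18 under 20 CPM, against 0.46 from 20 to 50 CPM and 0.60 at 50 CPM or more, so the changes were smaller where the reads were fewer, and the part of depth in the calls was not tested.

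Over gene bodies, Ser2p also rose at members, and by single times its calls against 0 h came at 24 and 48 h. It was tested in 99 members, since Mir1199 did not pass the filter on low counts. Against 0 h, 15 members rose and 0 fell, where 0.168% of all 32123 transcripts rose and 0.00311% fell. Against 72 h, 36 were higher and 0 lower, where 2.94% were higher and 2.23% lower. Both comparisons, which share the 4, 6 and 24 h libraries, were passed by 12 members, where 0.0965% of all transcripts (31) did. These were Rpa1, Cyp26a1, Halr1, 3300002P13Rik, Aebp2, Steap3, Tctn1, Foxp1, Dock6, Pptc7, Sntb2 and Pim1, and 9 of the 12 were among the 19 of Ser5p. The median log2 change was 0.38 against 0 h and 0.37 against 72 h.

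Over all transcripts, Ser2p against 0 h rose at 0 without 4 h replicate 4 or 6 h replicate 1. It rose at 4 without 4 h replicate 3, 5 without 6 h replicate 3 and 21 without 6 h replicate 4. The members' median log2 change was 0.405 without 0 h replicate 1 and 0.339 without 0 h replicate 4. The members' Ser2p calls against 0 h were likewise not stable to single libraries. Their number was 0 when either library of 0 h, replicate 3 of 24 h, replicate 4 of 4 h or replicate 1 of 6 h was left out, 1 without 4 h replicate 3, 2 without 6 h replicate 3, 4 without 24 h replicate 2, 5 without 6 h replicate 4, and 32 without either library of 72 h. The number in both moved with it, and was 0 in each of these first cases, 1 without 4 h replicate 3 or 6 h replicate 3, 3 without 24 h replicate 2 and 4 without 6 h replicate 4. The count against 72 h was 15 without 72 h replicate 1, and with replicate 1 of 0 and 72 h left out together the counts were 0, 14 and 0. At 2, 4 and 6 h singly, 0 members and 0 of 32123 transcripts passed against 0 h in edgeR. At an unadjusted p under 0.05, 48, 52 and 56 members were higher with 0 lower. Of all 32123 transcripts, 3109, 1657 and 2248 were higher at that p and 1256, 1319 and 2176 lower. No other tool was run on these times. At 24 h, 45 members rose against 0 h, where 9.01% of all transcripts did, and at 48 h 6 did (1.41%), which were Cyp26a1, Zfp85, Dhrs3, 4931406H21Rik, Pim1 and Lefty1.

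**Figure D4:**
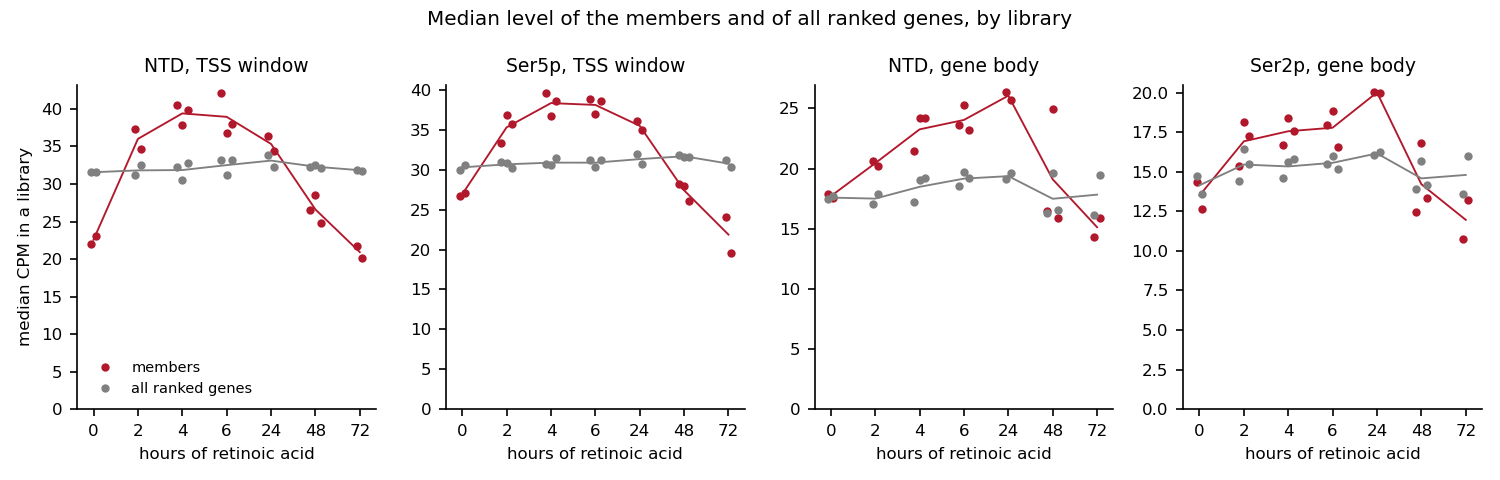
Median CPM of the 100 members and of all ranked genes in each library by hours of RA, in the 4 tables (NTD and Ser5p at promoters, NTD and Ser2p over gene bodies). At promoters the members' median is high from 2 to 24 h, and over gene bodies it is highest at 24 h, with 25.7 to 26.4 CPM of NTD and 19.99 to 20.06 CPM of Ser2p; 48 h replicate 2 is the high library of 48 h over gene bodies.

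The median member had 17.6 to 17.9 CPM of NTD over its body at 0 h, 20.2 to 20.6 at 2 h, 21.4 to 24.2 at 4 h, 23.2 to 25.3 at 6 h, 25.7 to 26.4 at 24 h, 15.9 to 24.9 at 48 h and 14.4 to 15.9 at 72 h. Ser2p had 12.6 to 14.4, 15.4 to 18.1, 16.7 to 18.4, 16.6 to 18.9, 19.99 to 20.06, 12.5 to 16.8 and 10.7 to 13.2 CPM at the same times. The highest mean stood at 6 h in 52 members and at 24 h in 39 for NTD over bodies, and at 24 h in 44 and at 6 h in 23 for Ser2p. Among ranked genes NTD over bodies was highest at 6 h in 22.2% and at 24 h in 26.2%. Their Ser2p was highest at 24 h in 34.7% and at 6 h in 11.7%. In 37 members every Ser2p library of 4, 6 and 24 h lay above every library of 0 and 72 h, where 2.66% of all transcripts did. NTD over bodies comes from the libraries that chose the members, and its values are a description.

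Dock6 had the clearest Ser2p pattern, with 104, 121 and 137 CPM over its body at 4, 6 and 24 h, against 57.4 and 49.1 CPM at 0 h and 42.0 and 48.4 CPM at 72 h. Its Ser2p rose by 1.16 ± 0.16 against 0 h (edgeR adjusted p = 0.0264) and was higher by 1.38 ± 0.17 against 72 h (adjusted p = 0.000224). Cyp26a1 had 6.37, 7.45 and 19.5 CPM of Ser2p, against 2.20 and 2.66 CPM at 0 h and 4.55 and 2.83 CPM at 72 h. Its Ser2p rose by 1.93 ± 0.35 against 0 h (edgeR adjusted p = 0.0431), was higher by 1.32 ± 0.34 against 72 h (adjusted p = 0.0308), and at 24 h stood at 12.1 and 19.5 CPM. Halr1 had 26.8, 33.8 and 43.5 CPM of Ser2p, against 16.5 and 13.99 CPM at 0 h and 12.5 and 12.8 CPM at 72 h, with changes of 1.18 ± 0.23 (edgeR adjusted p = 0.0478) and 1.44 ± 0.24 (adjusted p = 0.00197). In these 3 genes no library of 4, 6 or 24 h reached the levels of 0 or 72 h.

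The other 3 members with the largest Ser2p changes passed against 72 h and not against 0 h. Ppdpf had 2.64, 3.98 and 4.86 CPM of Ser2p, against 1.83 and 0.789 CPM at 0 h and 1.40 and 1.39 CPM at 72 h, with changes of 1.53 ± 0.30 against 0 h (edgeR adjusted p = 0.0505) and 1.41 ± 0.31 against 72 h (adjusted p = 0.013). Cox7a1 had 7.47, 12.1 and 13.7 CPM, against 5.86 and 3.70 CPM at 0 h and 2.95 and 5.25 CPM at 72 h, with changes of 1.28 ± 0.31 (edgeR adjusted p = 0.0787) and 1.49 ± 0.33 (adjusted p = 0.0143). Angptl8 had 2.89, 3.45 and 4.77 CPM, against 1.78 and 1.45 CPM at 0 h and 1.40 and 1.03 CPM at 72 h, with changes of 1.11 ± 0.25 (edgeR adjusted p = 0.0682) and 1.51 ± 0.28 (adjusted p = 0.00465). The groups did not overlap in these 3 genes either, and Angptl8 lies within Dock6.

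Pim1, short of the threshold against 0 h in Ser5p, had 11.3, 12.2 and 18.3 CPM of Ser2p, against 6.86 and 4.94 CPM at 0 h and 6.55 and 8.13 CPM at 72 h. Its Ser2p rose by 1.22 ± 0.20 against 0 h (edgeR adjusted p = 0.0399) and was higher by 0.89 ± 0.20 against 72 h (adjusted p = 0.0164). The pair with overlapping starts differed in calls. Rpa1 had 67.3, 78.4 and 88.2 CPM of Ser2p, against 47.3 and 43.6 CPM at 0 h and 42.4 and 46.6 CPM at 72 h, and passed in both, with changes of 0.76 ± 0.14 (edgeR adjusted p = 0.046) and 0.78 ± 0.14 (adjusted p = 0.00449). Smyd4 had 47.9, 53.2 and 57.0 CPM, against 42.1 and 39.5 CPM at 0 h and 34.7 and 37.6 CPM at 72 h, and passed only against 72 h, by 0.51 ± 0.08 (edgeR adjusted p = 0.0016). The difference between the genes was not tested. Rarg was higher in Ser2p against 72 h by 1.16 ± 0.20 (edgeR adjusted p = 0.00302). Lefty1 was higher in Ser2p at 24 h than at 4 and 6 h by 2.42 ± 0.26 (edgeR adjusted p = 0.000312), with 17.1 and 24.9 CPM at 24 h. It was 1 of 4 members so called (0.953% of all transcripts), with Cyp26a1, Bhlhe40 and 4931406H21Rik. That count was 0 without 24 h replicate 3, 1 without replicate 2 of 24 h or replicate 4 of 4 or 6 h, and 2 without replicate 1 or 3 of 4 or 6 h.

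The NTD libraries of 2 and 48 h entered the score only through the mean level, so NTD can be compared between them. At 48 h against 2 h, 27 members were lower and 2 higher, where 3.58% of all 31868 transcripts were lower and 3.99% higher. The median log2 change of the members was -0.43, where that of all transcripts was -0.03. With the authors' scale factors in place of TMM the counts were 7 lower and 1 higher, where 184 and 925 of all transcripts were. That scaling moved the median of all transcripts to 0.21 and of the members to -0.19. The number lower was 12 without either library of 2 h, 15 without 48 h replicate 1 and 17 without 48 h replicate 3.

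Pmepa1 fell most, with 28.7, 27.4 and 16.5 CPM at 48 h, against 94.7 and 96.9 CPM at 2 h, a log2 change of -1.92 ± 0.22 (edgeR adjusted p = 2.39e-08). Angptl8 had 10.8, 13.1 and 13.8 CPM at 48 h, against 39.9 and 41.1 CPM at 2 h (-1.66 ± 0.25, edgeR adjusted p = 5.11e-06). Rarg had 20.8, 22.6 and 26.7 CPM at 48 h, against 63.5 and 56.8 CPM at 2 h (-1.36 ± 0.22, edgeR adjusted p = 3.06e-05). In these 3 genes the groups were far apart. Acp5 (-1.25 ± 0.26), Cox7a1 (-1.17 ± 0.22), Cdx1 (-0.99 ± 0.26), Aebp2 (-0.98 ± 0.20) and Smyd4 (-0.76 ± 0.20) also fell. Mymx, a small membrane protein of muscle cell fusion named here after its values were seen, fell by 1.60 on the log2 scale at 48 h. Its Ser5p change against 72 h, 2.00 ± 0.26, was the largest among the members (edgeR adjusted p = 5.81e-07), with 61.2, 94.2 and 130.5 CPM at 4, 6 and 24 h, against 24.2 and 20.5 CPM at 72 h. The 2 that rose at 48 h were Lefty1 (1.72 ± 0.24), with 76.7, 112 and 81.8 CPM at 48 h, against 32.4 and 24.4 CPM at 2 h, and the forkhead gene Foxn4 (0.73 ± 0.24).

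The members were spread over the genome. With members less than 50 kb apart joined, they formed 87 loci, of which 12 held more than 1 member and 25 members in all. Besides Rpa1 and Smyd4, and Dock6 with its inner genes, these included 3300002P13Rik and Cacng6 with starts 1017 bp apart, Cox7a1 and Capns1 with starts 11182 bp apart, Tctn1 and Pptc7 with starts 19738 bp apart, and the zinc finger genes Zfp777 and Zfp746 with starts 38799 bp apart. They also held Ino80d with Ino80dos, and 0610040F04Rik with Bhlhe40, whose NTD reads at 0 h replicate 1 were 85 and 79, and 25 and 31. The counts of members take each gene of such pairs by itself. Smyd4 and Rpa1 are both in the 19 of Ser5p, and Ino80d and Ino80dos both in the 27 lower in NTD at 48 h. Within 50 kb of a member lay 221 ranked genes outside the set, of which 1 (0.452%) passed in both Ser5p comparisons, against 9 of the 12736 other ranked genes (0.0707%). That gene was Kank2, with Ser5p changes of 1.02 against 0 h and 1.28 against 72 h. Members with short genes were few, with 12 up to 2 kb long, for which the TSS window covers much or all of the gene.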

How the data were processed

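The authors deposited tables of raw read counts per RefSeq transcript, around TSSs for NTD and Ser5p and over gene bodies for NTD and Ser2p. They also deposited the same counts times 1 scale factor per library, a scaled signal, used here only as an alternative scaling. The submitters' processing notes name mm10, dm6, Bowtie2, SAMtools, MACS2 and DESeq2, and the counting tool is not given in the sources used here. Of 157 labelled samples, 53 had a column; native ChIP and input samples were not analysed here, and 49 further per-sample columns were not used. Reads of overlapping or facing genes cannot be told apart by ChIP-seq, and neither can near-identical copies.

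The test on counts was edgeR's quasi-likelihood F test (edgeR 4.0.16, TMM scaling, filterByExpr, time as a factor over all libraries of an antibody, R 4.3.3), adjusted by Benjamini-Hochberg over all transcripts with a threshold of 0.05, after tests on simulated data. CPM used column sums of the table as library size, and the mean level was taken over all 17 NTD libraries. Depth limits precision most at low promoters. Named genes were the 12 highest scores, the 10 and 6 largest changes in Ser5p and Ser2p (the smaller of the 2 comparisons), members of a gene list, and 3 genes on each side of the limit, passing over predicted genes. Aebp2, Mymx, Zfp493, Foxn4, Kank2 and the linker histones were named after their values were seen. Of 28 gene lists, 6 held a member, 8 members in all. The members and lists were chosen with earlier results of these data known. Alternatives were DESeq2 1.42.0, the authors' scale factors, no filter on low counts, a replicate block, and leaving out libraries. The Nodal and activin list against 72 h is not reported here.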

Additional observations from a re-analysis of the deposited data

How the results depend on the processing

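Leaving out 1 library at a time gave 2 to 33 members higher in Ser5p against 0 h, 25 to 52 against 72 h, 2 to 21 in both, and, at 24 h against 4 and 6 h, 1 to 3 higher and 0 to 3 lower. For Ser2p the ranges were 0 to 32 against 0 h, 15 to 36 against 72 h, 0 to 15 in both and 0 to 4 at 24 h against 4 and 6 h. NTD at 48 h against 2 h gave 12 to 26 lower and 1 to 2 higher, and 30 lower without 0 h replicate 4 and 72 h replicate 3, also chosen after seeing the data. The set itself kept 84 to 94 of its 100 members, and kept 61 when all libraries of 0 and 72 h entered the score. It kept 91 with a pseudocount of 5 CPM, 90 and 81 with a minimum of 5 and 20 CPM, and 84 with the authors' scale factors. Without replicate 1 of 0 and 72 h, chosen likewise, Ser5p gave 12, 33 and 6, and 4 higher and 3 lower at 24 h against 4 and 6 h, and Ser2p gave 0, 14 and 0. DESeq2 gave 36 for Ser2p against 0 h and 25 in both, 1 higher for Ser5p at 24 h against 4 and 6 h, and 1 higher for NTD at 48 h. It gave no adjusted p for 62 members in Ser5p against 0 h, and in Ser2p against 0 h 912 of all transcripts rose. The authors' scale factors gave 7 higher and 0 lower for Ser5p at 24 h against 4 and 6 h, where 1041 and 22 of all transcripts were. They gave 7 lower and 1 higher for NTD at 48 h, where 184 and 925 of all transcripts were. They also move the median log2 change of all transcripts in Ser5p against 0 h to 0.24, against -0.03. A replicate block gave 1 higher and 2 lower for Ser5p and 1 higher for Ser2p at 24 h against 4 and 6 h, and 1 higher for NTD at 48 h. It gave 20, 57 and 15 for Ser5p, 11, 36 and 8 for Ser2p and 22 lower for NTD. The labels do not tie same-numbered libraries together, and not every such pair deviated together: correlations of deviations were -0.224 to 0.383 in Ser5p, -0.595 to 0.686 in Ser2p and -0.115 to 0.353 in NTD. Their medians, 0.123, 0.0912 and 0.0829, lay above those of other pairs, -0.0451, -0.0379 and -0.0313. Bloc1s3 reversed in Ser5p against 72 h, at -0.0084 without 72 h replicate 1 and, with 0 h replicate 1 left out as well, at -0.0082, and was 0.4698 without 72 h replicate 3. Of 1748 values of single genes under these settings, 1492 kept their call and direction, 222 lost the call, 32 gained it and 2 reversed. The causes of these differences were not tested.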
